A study of Rattus norvegicus with 7 samples.

Results

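The genes described here are 10 transcription factors of the heart: the GATA zinc finger genes Gata4 and Gata6, the homeobox gene Nkx2-5, the T-box genes Tbx5 and Tbx20, the MADS-box genes Mef2a and Mef2c, the basic helix-loop-helix gene Hand2, and the homeodomain genes Meis1 and Hopx. They were taken by symbol from a table of 17141 rat genes, and all 10 were found, each in 1 row. All 10 also passed the filter on low values, set at a mean of 1 RPKM across libraries, which 12330 genes passed. RPKM is a read count divided by the gene's length and by a library size, which here was not the sum of the reads in these genes. Levels can so be compared between genes and, on the scale set by that size, between libraries.

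The study asked what microRNAs (miRNAs) able to drive cardiomyocytes into division have in common. Wild type Wistar rats of postnatal day 0 gave the cells, which came from the ventricles and were transfected with 1 synthetic miRNA at 25 nM; RNA was taken after 72 h and polyadenylated transcripts were sequenced. The 7 libraries, 1 for each miRNA, were cel-miR-67, a nematode miRNA used here as the reference because the authors' deposited ratios divide by it, and hsa-miR-1825, hsa-miR-590-3p, hsa-miR-33b*, hsa-miR-199a-3p, and the pair hsa-miR-302d-3p and hsa-miR-373-3p. The labels do not say how many animals or dishes stand behind a library, and the cells were enriched for cardiomyocytes only by letting other cells settle on plastic. Since each miRNA has a single library, nothing here can be checked against replicates, no p-value was computed, and "higher" and "lower" describe these libraries.

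Many of these factors bind DNA next to each other at the enhancers of heart muscle genes and regulate one another's genes. Those are often described as a core network that sets up the embryonic heart and keeps its muscle genes on. Gata4, Nkx2-5, Tbx5, Mef2c and Hand2 are needed for heart formation in the embryo, and mutations of GATA4, NKX2-5, TBX5 and TBX20 cause congenital heart disease in people. Gata4, Hand2, Mef2c and Tbx5 are also used together to reprogram fibroblasts toward cardiomyocytes. Meis1 is known as a factor that favours exit of newborn cardiomyocytes from the cell cycle, and Hopx, an atypical homeodomain protein that does not bind DNA itself, limits the activity of serum response factor.

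The reads in listed genes came to between 22616048 and 31963271 per library. The library size behind the RPKM differed from these totals. The reads in listed genes were 85.5% of it with miR-199a-3p, 110% in the reference and 92.1% to 108% in the rest, so each scaling gives other levels. Genes with mitochondrial names took 27.7% of the reads in listed genes with miR-199a-3p, 41.0% in the reference and 30.6% to 41.4% in the rest. Scaling to the reads in listed genes thus includes these reads, and their part in it was not tested. The members had between 231 reads (Tbx5 with miR-33b*) and 3570 reads (Tbx20 with miR-302d-3p). A change from the reference is the log2 ratio of RPKM values with 1 RPKM added to each, and stands beside the plain ratio of read rates with its exact 95% (Clopper-Pearson) interval, which covers counting error only and not the difference between cultures. The labelled cell type was borne out by its markers: 11 of 12 cardiomyocyte markers were matched and all were read in each library, with Tnnt2 of the troponin complex at 1607 to 2440 RPKM. Fibroblast markers (11 matched) summed to 1105 to 1425 RPKM, smooth muscle markers (8 matched) to 774 to 1195 RPKM, and endothelial markers (8 matched) to 14.2 to 23.1 RPKM. Several members are also active in fibroblasts, the epicardium or the endocardium, and in such a mixture fewer cells of a type and less RNA per cell cannot be told apart.

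In the cel-miR-67 library the members lay between 3.01 and 48.9 RPKM. The order from the top was Tbx20 (48.9 RPKM), Hand2 (44.9), Mef2a (36.6), Nkx2-5 (29.2), Gata4 (23.1), Hopx (17.6), Gata6 (8.62), Meis1 (6.28), Mef2c (4.97) and Tbx5 (3.01). The exact Poisson intervals of neighbours in this order overlapped only for Tbx20 (47.2 to 50.6 RPKM) and Hand2 (41.6 to 48.5). Across the 7 libraries the order was less fixed. Mef2a stood above Nkx2-5 in 3 of 7 libraries, Gata4 above Hopx in 3, and Tbx20 above Hand2 in 4. The step from Hopx down to Gata6 was kept in 7 of 7, as were those from Hand2 to Mef2a, from Meis1 to Mef2c and from Mef2c to Tbx5. With miR-302d-3p the last was narrow. Mef2c was at 2.56 RPKM (2.43 to 2.69) and Tbx5 at 2.51 (2.23 to 2.81), with overlapping Poisson intervals. These levels depend on the gene lengths behind them: the length worked out from the values was 645 bases for Hand2 and 18075 for Mef2c, against 1038 to 3518 for the others, so a level per length can be understated for Mef2c if much of that length is rarely transcribed.

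**Figure D1:**
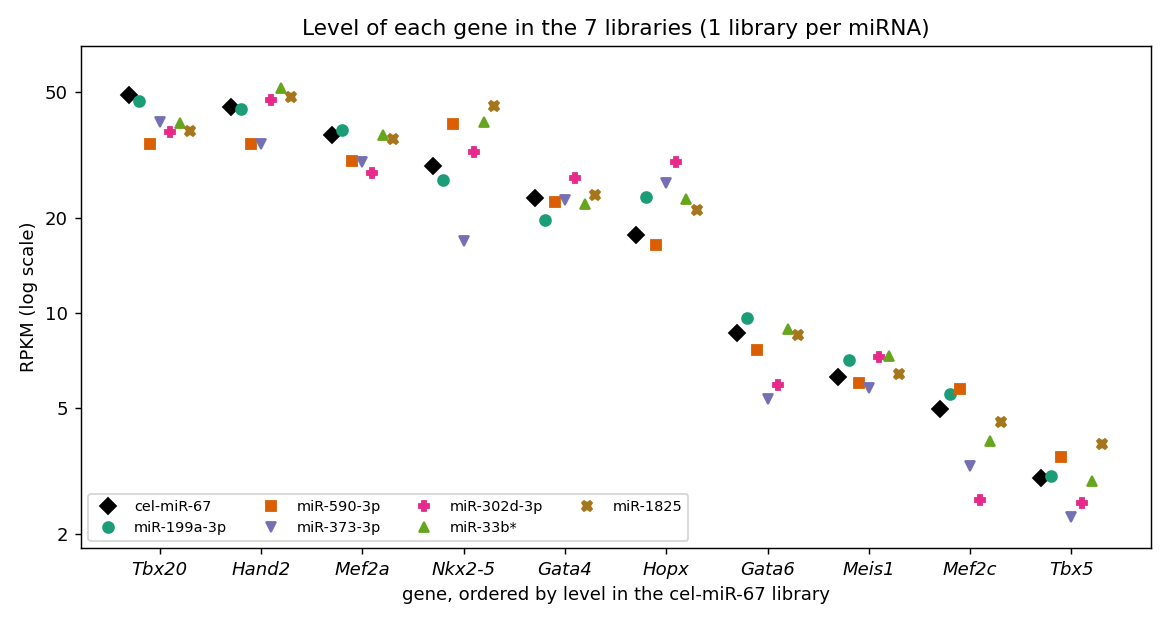
RPKM of the 10 genes (log axis), ordered by their level in the cel-miR-67 library, with 1 point for each of the 7 libraries and no error bars because each miRNA has 1 library. The upper 6 genes lie between 16.4 and 51.5 RPKM and the lower 4 between 2.25 and 9.67 RPKM; Nkx2-5 has the widest spread, from 16.8 RPKM with miR-373-3p to 45.2 with miR-1825.

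No member was 2-fold or more from the reference in any library, a limit that 9.59% of the 12330 tested genes passed in at least 1 of the 6 miRNA libraries. Library by library, 1.04% of tested genes were 2-fold higher with miR-199a-3p, 1.51% with miR-590-3p, 1.15% with miR-373-3p, 1.31% with miR-302d-3p, 1.30% with miR-33b* and 2.00% with miR-1825, and in that order 1.52%, 0.762%, 1.87%, 2.11%, 1.24% and 1.63% were 2-fold lower. At 1.5-fold, 4 of the 10 members passed in at least 1 library, against 30.1% of tested genes, so the members' share was near the background. None passed in all 6 (background 0.868%), and none was above the reference in all 6 (background 13.9%). After miR-373-3p 2 members were at least 1.5-fold lower (background 6.56%), Nkx2-5 and Gata6, and 0 higher (background 4.83%). After miR-302d-3p 1 member was lower, Mef2c (background 7.32%), and 1 higher, Hopx (background 5.11%). After miR-1825 1 member was higher, Nkx2-5 (background 5.94%), and 0 lower (background 6.33%). After miR-199a-3p, miR-590-3p and miR-33b* 0 members passed in either direction, where 4.81%, 4.70% and 5.17% of tested genes were higher and 5.55%, 3.49% and 5.52% lower. The 3 lower calls are lost when the library sizes are set by the reads in listed genes. Nkx2-5 and Gata6 were then at -0.58 and -0.44 with miR-373-3p and Mef2c at -0.55 with miR-302d-3p. Both higher calls pass there too, Hopx at 0.98 and Nkx2-5 at 0.74, as does Hopx with miR-373-3p (0.71) and with miR-199a-3p (0.72). On that scale the median of all tested genes was 0.17 with miR-373-3p, 0.23 with miR-302d-3p, 0.30 with miR-199a-3p and 0.11 with miR-1825. The share of tested genes past 1.5-fold was not computed there.

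The median change of the 10 members was 0.03 with miR-199a-3p, -0.08 with miR-590-3p, -0.29 with miR-373-3p, -0.06 with miR-302d-3p, 0.02 with miR-33b* and 0.03 with miR-1825. The median of all tested genes lay between -0.0034 and 0.02 in these comparisons. After miR-373-3p 9 of the 10 members were below the reference, 7 when the library sizes were set by the reads in listed genes, a scaling that moved the median of all tested genes in that library by 0.17. Hopx was the exception on the deposited scale. The 6 comparisons share the 1 reference library, so an unusual level there enters all of them.

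**Figure D2:**
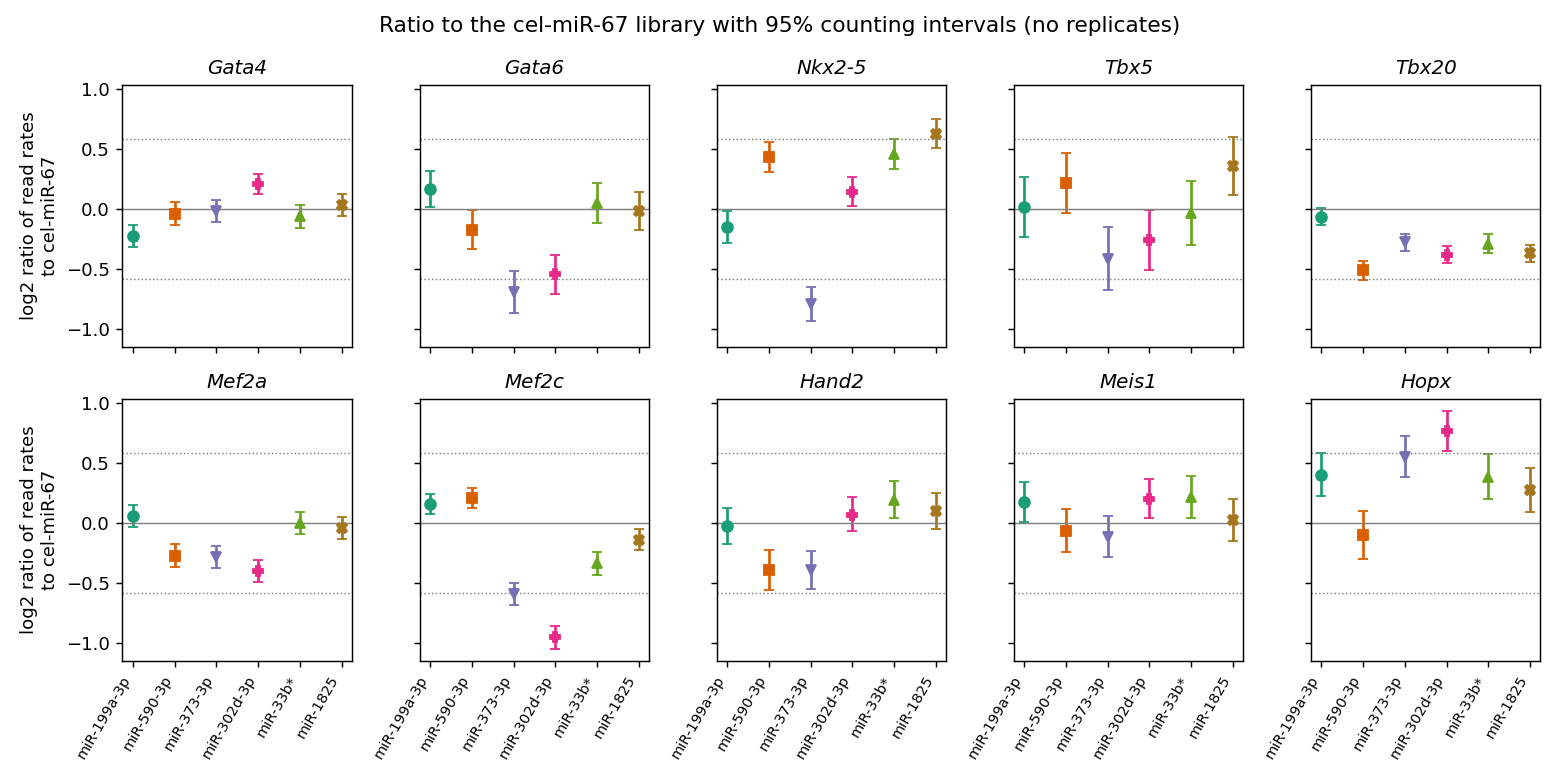
Log2 ratio of read rates of each gene in the 6 miRNA libraries to the cel-miR-67 library, with exact 95% intervals for counting error as bars; dotted lines mark 1.5-fold and the solid line no difference. Nkx2-5 lies on both sides of the reference, Tbx20 lies below it throughout on the deposited scale (above it with miR-199a-3p when scaled to the reads in listed genes), and Mef2c and Gata6 are lowest with miR-302d-3p and miR-373-3p.

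Nkx2-5 (ENSRNOG00000020747), one of the earliest genes of the cardiac lineage and a partner of GATA and T-box factors, varied most. It was read at 29.2 RPKM with cel-miR-67, 26.3 with miR-199a-3p, 39.5 with miR-590-3p, 16.8 with miR-373-3p, 32.3 with miR-302d-3p, 40.2 with miR-33b* and 45.2 with miR-1825. The miR-373-3p library stood alone at the low end, and miR-590-3p, miR-33b* and miR-1825 formed the high end. The highest level was 2.68 times the lowest, a range of 1.37 on the log2 scale, which 6.50% of tested genes exceeded. After miR-373-3p the ratio to the reference was 0.576 (0.521 to 0.637), a log2 change of -0.76, and with miR-1825 it was 1.55 (1.42 to 1.68), a log2 change of 0.61. The ratios with miR-590-3p, 1.35 (1.24 to 1.47), and miR-33b*, 1.38 (1.26 to 1.5), also left out 1 in their counting intervals. Set against the remaining 5 miRNA libraries (their mean, without cel-miR-67), the change with miR-373-3p was -1.06.

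Gata6 and Gata4 encode the zinc finger factors that bind the GATA sequence in heart muscle genes and can partly stand in for each other. Gata6 (ENSRNOG00000023433) was at 8.62 RPKM with cel-miR-67, 9.67 with miR-199a-3p, 7.65 with miR-590-3p, 5.33 with miR-373-3p, 5.90 with miR-302d-3p, 8.92 with miR-33b* and 8.52 with miR-1825. The 2 lowest libraries were miR-373-3p and then miR-302d-3p, with ratios of 0.618 (0.548 to 0.696) and 0.684 (0.612 to 0.766) to the reference, and the other 5 libraries lay above both.

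Gata4 (ENSRNOG00000010708) stayed in a narrow band. It was at 23.1 RPKM with cel-miR-67, 19.7 with miR-199a-3p, 22.4 with miR-590-3p, 22.8 with miR-373-3p, 26.7 with miR-302d-3p, 22.1 with miR-33b* and 23.6 with miR-1825. Its extremes were miR-199a-3p, at a ratio of 0.855 (0.800 to 0.914), and miR-302d-3p, at 1.16 (1.09 to 1.23); the other 4 counting intervals held 1. Set by the reads in listed genes, Gata4 was above the reference with miR-199a-3p (0.12) and furthest above it with miR-302d-3p (0.44). The medians of all tested genes there were 0.30 and 0.23. The level of Gata6 relative to Gata4 within a library, which does not depend on the library size, was 0.374 (0.340 to 0.410) in the reference. It was 0.491 (0.451 to 0.533) with miR-199a-3p, 0.234 (0.212 to 0.258) with miR-373-3p and 0.221 (0.203 to 0.241) with miR-302d-3p, and between 0.341 and 0.404 in the remaining 3.

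Tbx5 and Tbx20 are T-box factors: Tbx5 acts in the atria, the left ventricle and the conduction system, and Tbx20 is kept on in adult cardiomyocytes and is also found in the endocardium. Tbx20 (ENSRNOG00000016181) was highest in the reference. It was at 48.9 RPKM with cel-miR-67, 46.8 with miR-199a-3p, 34.3 with miR-590-3p, 40.3 with miR-373-3p, 37.5 with miR-302d-3p, 40.0 with miR-33b* and 37.8 with miR-1825.

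Tbx20 was thus the only member below the reference in all 6 libraries on the deposited scale, as 13.4% of tested genes were. Scaled to the reads in listed genes, Tbx20 was 0.29 above the reference with miR-199a-3p, where the median of all tested genes was 0.30. The lowest ratio was 0.702 (0.664 to 0.741), with miR-590-3p, and that with miR-199a-3p, 0.957 (0.911 to 1.00), did not leave out 1. Set against the mean of the remaining 5 miRNA libraries Tbx20 was at 0.30 with miR-199a-3p and at -0.23 with miR-590-3p, with the remaining 4 between -0.08 and 0.04. The summed level of the 11 matched cardiomyocyte markers was also highest in the reference, at 21635 RPKM against 16638 to 20811, as were those of the fibroblast markers (1425 against 1105 to 1353 RPKM) and of the 9 leukocyte markers (21.5 against 14.6 to 19.9). The smooth muscle sum was lowest in the reference (774 against 776 to 1195 RPKM). Not highest there were the atrial (1993 against 649 to 3276), epicardial (45.2 against 32.6 to 51.4), erythroid (7.14 against 4.49 to 10.1) and Schwann and neural sums (22.5 against 15.3 to 24.0). Such sums rest on few genes, as Actc1 (7073 RPKM) and Myl2 (6838) in the cardiomyocyte sum of the reference. The sum of the 8 endothelial markers, none at 0 reads, was 23.1 RPKM against 14.2 to 17.8, of which Eng made up 15.6 RPKM in the reference and 8.60 to 12.4 in the rest, while Tek was at 2.09 RPKM against 1.82 to 3.20. The part of these cells in the Tbx20 level was not tested.

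Tbx5 (ENSRNOG00000001399), the member with the fewest reads, was at 3.01 RPKM with cel-miR-67, 3.04 with miR-199a-3p, 3.49 with miR-590-3p, 2.25 with miR-373-3p, 2.51 with miR-302d-3p, 2.94 with miR-33b* and 3.86 with miR-1825. As for Nkx2-5, miR-373-3p was the lowest library and miR-1825 the highest. The ratios there were 0.749 (0.624 to 0.899) and 1.28 (1.09 to 1.52). Those with miR-199a-3p, miR-590-3p and miR-33b* held 1 in their counting intervals.

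Mef2a and Mef2c encode MADS-box factors that bind A/T-rich sites in muscle genes. Mef2c (ENSRNOG00000033134) was at 4.97 RPKM with cel-miR-67, 5.56 with miR-199a-3p, 5.75 with miR-590-3p, 3.28 with miR-373-3p, 2.56 with miR-302d-3p, 3.94 with miR-33b* and 4.51 with miR-1825. The ratio to the reference was 0.515 (0.482 to 0.550) with miR-302d-3p and 0.661 (0.620 to 0.704) with miR-373-3p. The first was the largest relative difference of any member, but at this low level the log2 change with 1 RPKM added was -0.75, and -0.48 with miR-373-3p. The libraries of miR-590-3p and miR-199a-3p were the only ones above the reference, at ratios of 1.16 (1.09 to 1.23) and 1.12 (1.06 to 1.19).

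Mef2a (ENSRNOG00000047756), the more abundant of the pair, was at 36.6 RPKM with cel-miR-67, 38.1 with miR-199a-3p, 30.2 with miR-590-3p, 30.1 with miR-373-3p, 27.7 with miR-302d-3p, 36.5 with miR-33b* and 35.5 with miR-1825. These fell into 4 libraries between 35.5 and 38.1 RPKM and 3 between 27.7 and 30.2. The level of Mef2c relative to Mef2a within a library was 0.136 (0.128 to 0.145) in the reference, lowest with miR-302d-3p at 0.0925 (0.0867 to 0.0987) and highest with miR-590-3p at 0.19 (0.179 to 0.203).

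Hand2 (ENSRNOG00000060448), a basic helix-loop-helix factor of the right ventricle and its progenitors, was at 44.9 RPKM with cel-miR-67, 44.1 with miR-199a-3p, 34.3 with miR-590-3p, 34.2 with miR-373-3p, 47.2 with miR-302d-3p, 51.5 with miR-33b* and 48.2 with miR-1825. The libraries of miR-590-3p and miR-373-3p stood below the rest, with ratios of 0.763 (0.680 to 0.856) and 0.761 (0.682 to 0.848). Of the other 4, the ratio with miR-33b*, 1.15 (1.03 to 1.27), left out 1.

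Meis1 (ENSRNOG00000004606) varied least of the members. It was at 6.28 RPKM with cel-miR-67, 7.09 with miR-199a-3p, 6.01 with miR-590-3p, 5.80 with miR-373-3p, 7.23 with miR-302d-3p, 7.31 with miR-33b* and 6.39 with miR-1825. The range was 0.29 on the log2 scale, narrower than that of 89.0% of tested genes. The ratios to the reference lay between 0.924 (0.820 to 1.04) with miR-373-3p and 1.16 (1.03 to 1.31) with miR-33b*. Scaled to the reads in listed genes, the first turned to a log2 change of 0.07, where the median of all tested genes was 0.17.

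Meis1 is reported to act through cyclin kinase inhibitor genes. A list of 6 genes, inhibitors of this kind and Hif1a, was followed beside it (Cdkn1a, Cdkn2a, Cdkn2b, Cdkn1b, Cdkn2c and Hif1a). Whether each of the 6 is a target of Meis1 in these cells was not tested. The list was chosen with earlier results of these data known, so its counts beside the background are only a description. After miR-1825 4 of the 6 were at least 1.5-fold higher (background 5.94%), with a list median of 0.67, and with miR-33b* 2 (background 5.17%), with a median of 0.46. The list medians were 0.06 with miR-199a-3p, 0.05 with miR-590-3p, 0.02 with miR-373-3p and -0.16 with miR-302d-3p. Scaled to the reads in listed genes, the last was 0.04, where the median of all tested genes was 0.23. On the deposited scale 1 gene, Cdkn2c in both, was higher in each of the first 2 of these (backgrounds 4.81% and 4.70%). None passed in either direction in the third (4.83% higher, 6.56% lower) and 1, Cdkn1a, was lower in the fourth (7.32%). With miR-33b* and miR-1825 Meis1 itself was at 0.19 and 0.02. Cdkn2c, which encodes an inhibitor of the G1 cyclin kinases, was at 1.11 with miR-199a-3p, 1.42 with miR-590-3p and 1.58 with miR-1825, and Cdkn1a, the p21 gene, was at -0.72 with miR-302d-3p and 0.60 with miR-1825.

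Hopx (ENSRNOG00000024689) was the 1 member above the reference with miR-373-3p on the deposited scale (Gata4 and Meis1 are also above it when scaled to the reads in listed genes). It was at 17.6 RPKM with cel-miR-67, 23.3 with miR-199a-3p, 16.4 with miR-590-3p, 25.8 with miR-373-3p, 30.0 with miR-302d-3p, 23.0 with miR-33b* and 21.3 with miR-1825. It was above the reference in 5 of the 6 libraries, with ratios of 1.71 (1.52 to 1.92) with miR-302d-3p and 1.47 (1.30 to 1.65) with miR-373-3p; the ratio with miR-590-3p, 0.931 (0.810 to 1.07), did not leave out 1. Set against the mean of the remaining 5 miRNA libraries the change with miR-302d-3p was 0.45 and that with miR-590-3p was -0.55. Within those same libraries Srf, the factor that Hopx limits, lay between 23.6 RPKM with miR-33b* and 32.1 with miR-302d-3p, with 28.6 in the reference.

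Counting intervals left out 1 for 6 of the 10 members with miR-199a-3p, 6 with miR-590-3p, 8 with miR-373-3p, 9 with miR-302d-3p, 6 with miR-33b* and 5 with miR-1825. For all tested genes the shares were 51.9%, 47.8%, 54.9%, 57.7%, 52.3% and 54.8%, so at this depth counting error alone is passed by about as many genes as not.

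miR-373-3p and miR-302d-3p share a seed, the bases that choose most targets, and their libraries were set side by side. They differed for Nkx2-5, at 16.8 RPKM with miR-373-3p and 32.3 with miR-302d-3p, a ratio of 1.92 (1.75 to 2.10). This was the 1 member at least 1.5-fold apart, a difference that 2.40% of tested genes showed. Hand2 had a ratio of 1.38 (1.25 to 1.52) and Mef2c one of 0.780 (0.728 to 0.834), while Gata6, at 1.11 (0.984 to 1.25), and Tbx5, at 1.11 (0.937 to 1.32), held 1. Without replicates a difference between cultures and one between the miRNAs cannot be told apart.

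**Figure D3:**
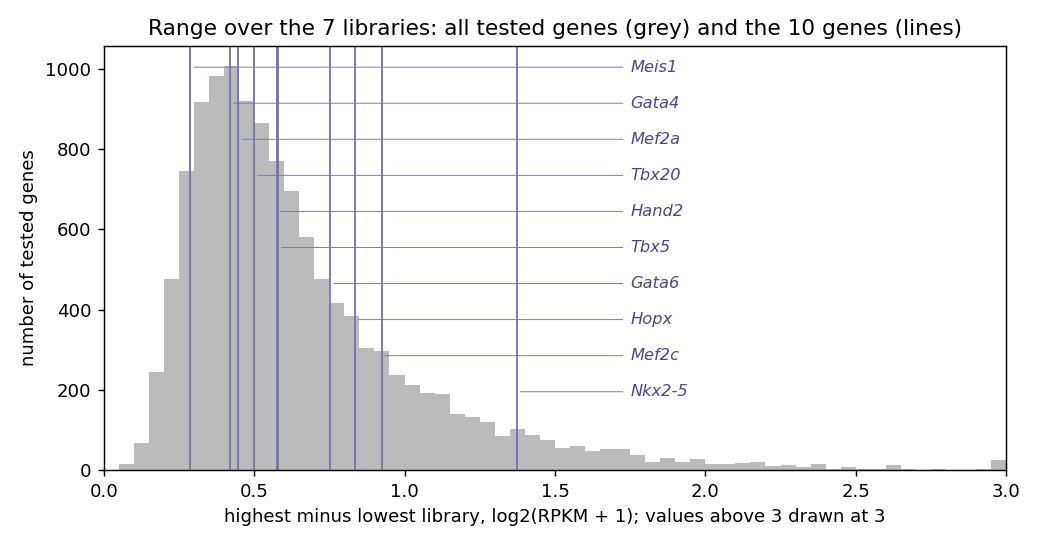
Distribution over 12330 tested genes (grey bars, number of genes) of the range between the highest and the lowest of the 7 libraries on the log2(RPKM + 1) scale, with the 10 genes as lines. The members' median range was 0.58, against 0.55 for all tested genes, and they run from Meis1 (0.29) to Nkx2-5 (1.37).

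The members' range over the 7 libraries had a median of 0.58 on the log2 scale, where all tested genes had a median of 0.55 with quartiles of 0.38 and 0.81. Gata4 (0.42), Mef2a (0.45) and Tbx20 (0.50) lay below that median, Hand2 and Tbx5 (0.58 each) just above it, and Gata6 (0.75), Hopx (0.84) and Mef2c (0.92) toward or past the upper quartile.

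Pairs of members with similar profiles over the 7 libraries were sought with Pearson's r of log2(RPKM + 1), given as a description because the 7 points share library and scaling. Mef2a and Gata6 were most alike (r = 0.89), followed by Hand2 and Meis1 (0.80), Nkx2-5 and Tbx5 (0.79) and Mef2c and Gata6 (0.75). Hopx and Mef2c were most opposed (-0.84). Among named protein-coding genes averaging 5 RPKM or more, the closest to Mef2c were Nexn and Tmem43 (0.99 each). Mef2a was closest to Trdn and Oxr1 (0.97 each), and Gata6 to Cldnd1 (0.99) and Eya4 (0.97). For Nkx2-5 they were Scand1 and Zfp771, and for Hopx Actr10 and Ppil1 (0.98 each). Tbx5 was closest to Ino80e and Sergef (0.98 each), and Tbx20 to Nab2 (0.98) and Trib2 (0.95). Gata4 was closest to Coa3 (0.96) and Ufc1 (0.95), Hand2 to Mafg (0.93) and Nt5c (0.92), and Meis1 to Tpd52l2 (0.94) and Acaa1a (0.93). Each is the highest r among many genes over only 7 points. How high it runs for other genes was not tested, so no link is drawn from these names.

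Promoter sequences are shown for Nkx2-5 and Gata6, the members at least 1.5-fold lower with miR-373-3p on the deposited scale, each with the member most like it that the reference table holds, Tbx5 and Mef2a. The RefSeq table (build GRCr8) held 8 of the 10 members. Each stretch runs from 250 bases before to 50 bases after the annotated start, 5′ to 3′ on the gene's strand, and capitals mark matches on either strand to the motifs of the members' own families: AGATAA for the GATA factors and, as its variant, TGATAA, then NKX2-5 (TNAAGTG), T-box (GGTGTNA), the MEF2 consensus, MEIS (TGACAG) and the HAND E-box (CATCTG). No 2 matches overlapped in these 4 stretches.
Nkx2-5, chr10:16848350-16848649, plus strand: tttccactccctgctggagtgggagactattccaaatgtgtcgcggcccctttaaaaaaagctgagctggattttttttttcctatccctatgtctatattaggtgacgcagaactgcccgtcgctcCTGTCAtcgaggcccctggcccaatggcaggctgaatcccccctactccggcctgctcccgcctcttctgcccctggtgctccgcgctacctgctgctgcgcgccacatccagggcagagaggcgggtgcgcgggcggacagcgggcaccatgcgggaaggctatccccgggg
Tbx5, chr12:42395310-42395609, minus strand: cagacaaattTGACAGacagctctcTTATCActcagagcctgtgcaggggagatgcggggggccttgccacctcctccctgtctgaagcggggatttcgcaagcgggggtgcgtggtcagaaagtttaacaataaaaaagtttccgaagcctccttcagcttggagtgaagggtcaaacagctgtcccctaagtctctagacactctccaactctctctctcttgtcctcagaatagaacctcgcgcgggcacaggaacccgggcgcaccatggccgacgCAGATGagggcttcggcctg
Gata6, chr18:2460659-2460958, plus strand: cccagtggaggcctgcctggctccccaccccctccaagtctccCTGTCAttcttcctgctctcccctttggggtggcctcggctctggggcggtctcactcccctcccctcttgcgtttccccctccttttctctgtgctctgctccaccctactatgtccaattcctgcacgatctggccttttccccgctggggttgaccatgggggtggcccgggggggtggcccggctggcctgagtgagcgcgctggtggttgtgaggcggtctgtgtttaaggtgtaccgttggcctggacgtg
Mef2a, chr1:130392113-130392412, minus strand: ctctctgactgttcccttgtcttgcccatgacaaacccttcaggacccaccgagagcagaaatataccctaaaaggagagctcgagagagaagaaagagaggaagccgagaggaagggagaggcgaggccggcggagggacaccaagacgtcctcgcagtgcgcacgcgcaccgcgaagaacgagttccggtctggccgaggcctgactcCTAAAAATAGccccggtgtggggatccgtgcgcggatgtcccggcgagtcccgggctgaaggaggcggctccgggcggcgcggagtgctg

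The Nkx2-5, Tbx5 and Gata6 stretches each held 1 MEIS match, a motif present in 19.0% of the 33469 promoters of the same length in the table. Tbx5 also held 1 GATA match (18.9% of promoters) and 1 HAND E-box match (16.6%). The HAND E-box match lay after the annotated start, from base 31, and not upstream of it. Mef2a held a MEF2 consensus match, CTAAAAATAG, beginning 40 bases before its start, which 3.29% of promoters held. NKX2-5 and T-box motifs, present in 11.5% and 10.9% of promoters, were matched in none of the 8 members' stretches. A match is a string of letters and not a bound site.

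Of the transfected miRNAs, 1 had an entry under its name among the rat reference miRNA sequences. Its sequence is given so that the bases that choose its targets can be read. The seed (bases 2 to 8) is in capitals.
rno-miR-199a-3p, chr13:77116294-77116315, plus strand, GRCr8: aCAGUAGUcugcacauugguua

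Other transcription factors and cofactors of the heart were followed in 7 lists: GATA, T-box, NK and Iroquois, TALE, MADS-box, helix-loop-helix and further cardiac regulators. These lists were chosen with earlier results of these data known. Of 93 genes 82 were matched and 56 had a mean of at least 1 RPKM. Their medians were 0.04 with miR-199a-3p, -0.08 with miR-590-3p, -0.18 with miR-373-3p, -0.12 with miR-302d-3p, -0.02 with miR-33b* and -0.03 with miR-1825. With miR-373-3p 9 of the 56 were at least 1.5-fold lower (background 6.56%) and 1 higher (background 4.83%). At least 1.5-fold lower were 4 with miR-199a-3p, 3 with miR-590-3p, 7 with miR-302d-3p, 4 with miR-33b* and 6 with miR-1825, where the backgrounds were 5.55%, 3.49%, 7.32%, 5.52% and 6.33%. Higher were 2 with miR-302d-3p (background 5.11%) and 0 in the other 4 of these libraries (backgrounds 4.81%, 4.70%, 5.17% and 5.94%). Scaled to the reads in listed genes, the medians were 0.32 with miR-199a-3p, -0.06 with miR-590-3p, -0.02 with miR-373-3p, 0.09 with miR-302d-3p and 0.06 each with miR-33b* and miR-1825. The medians of all tested genes on that scale were 0.30, 0.01, 0.17, 0.23, 0.10 and 0.11 in the same order. The counts lower were then 2, 3, 3, 3, 2 and 4 in the order of the libraries above, and the counts higher 4, 0, 3, 7, 2 and 0. The share of all tested genes past 1.5-fold was not computed on that scale, so these counts have no background beside them.

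**Figure D4:**
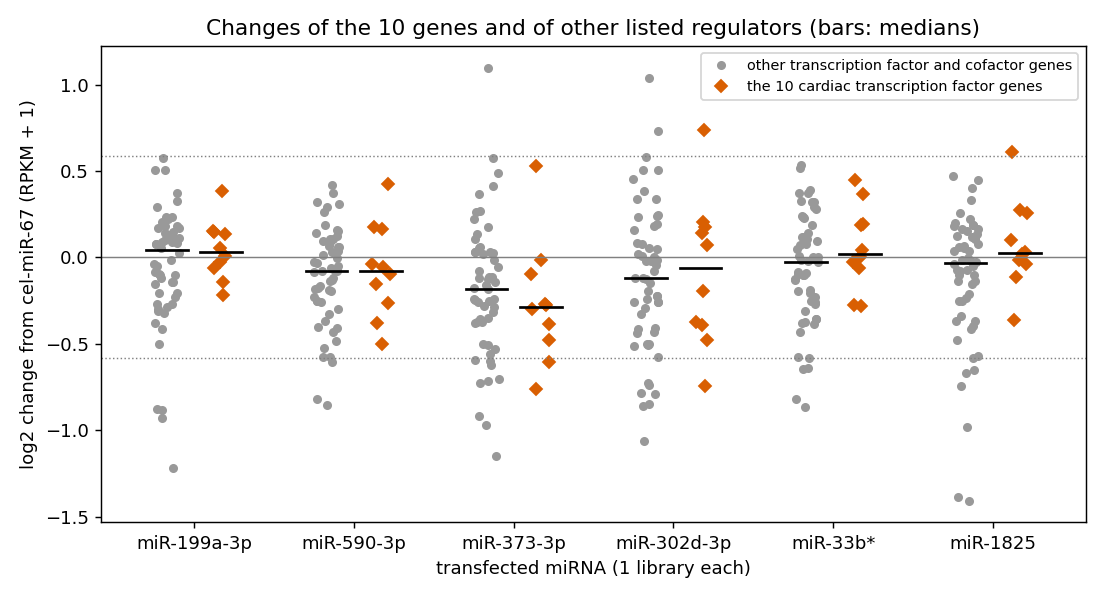
Log2 change from cel-miR-67 of the 10 genes (diamonds) and of 56 other listed transcription factors and cofactors (circles) in the 6 miRNA libraries, with medians as bars and 1.5-fold as dotted lines. On this deposited scale the medians with miR-373-3p are -0.29 and -0.18. Scaled to the reads in listed genes they are -0.12 and -0.02, where the median of all tested genes is 0.17. The only circles more than 2-fold higher are Id2, in the miR-373-3p library and in that of miR-302d-3p.

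Close relatives of the members showed their own patterns. Gata5 was at changes of -0.48 (miR-1825) to 0.10 (miR-199a-3p), and Mef2d at 6.46 RPKM and -0.51 (miR-373-3p) to -0.23 (miR-199a-3p). Scaled to the reads in listed genes, all 8 tested genes of the MADS-box list, Mef2d among them, were above the reference with miR-199a-3p. So were all 10 members, and the median of all tested genes there was 0.30. Lmcd1, which binds GATA6 and limits its activity, was at 52.5 RPKM in the reference and 28.0 to 41.6 RPKM in the others, a change of -0.88 to -0.33. The Meis partner Pbx3 was at 0.50 with miR-199a-3p and at -0.35 and -0.44 with miR-373-3p and miR-302d-3p.

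Genes at least 2-fold from the reference on these lists were few. Id2, an inhibitor of helix-loop-helix factors, was at 8.37 RPKM in the reference, 19.1 with miR-373-3p and 18.3 with miR-302d-3p (changes of 1.10 and 1.04), and at 3.75 RPKM with miR-1825 (-0.98). Id4 was at -1.22 with miR-199a-3p. Irx3, an Iroquois factor of the conduction system, was at 9.34 RPKM in the reference and 3.66 with miR-373-3p (-1.15), and its neighbour in the family Irx5 at -0.72 there. Irx4, the ventricular family member, was at 0.58 with miR-302d-3p, with miR-373-3p and with miR-199a-3p. Tcf21, a factor of fibroblasts and the epicardium, was at 15.9 RPKM in the reference and 5.38 with miR-1825 (-1.41), with the other 5 libraries at 7.63 to 10.4 RPKM, and the stress-responsive cofactor Ankrd1 at -1.39 there and -1.06 with miR-302d-3p.

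Some factors were near the limit of detection, named here after their values were seen: Isl1 of heart progenitors averaged 0.04 RPKM, Shox2 of the sinus node 0.11, Hand1 0.13 and Tbx3 0.27. Levels this low rest on few reads and were not compared between libraries.

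Genes reported as targets of the members were listed from general knowledge, with earlier results of these data known. They were mostly sarcomere, calcium handling and peptide hormone genes (36 genes, 35 of them matched and tested). Their median was -0.27 with miR-199a-3p, -0.29 with miR-590-3p, -0.07 with miR-373-3p, -0.07 with miR-302d-3p, -0.26 with miR-33b* and -0.33 with miR-1825. With library sizes set by the reads in listed genes the median was 0.03 with miR-199a-3p, -0.27 with miR-590-3p, 0.12 with miR-373-3p and 0.17 with miR-302d-3p. The medians of all tested genes on that scale were 0.30, 0.01, 0.17 and 0.23, each above that of the targets. On the deposited scale, in the order of its medians above, 9, 6, 6, 7, 6 and 10 of the 35 were at least 1.5-fold lower. The backgrounds were 5.55%, 3.49%, 6.56%, 7.32%, 5.52% and 6.33%. The counts higher were 2, 2, 4, 4, 1 and 1, against backgrounds of 4.81%, 4.70%, 4.83%, 5.11%, 5.17% and 5.94%. Scaled to the reads in listed genes, 3 were lower and 4 higher with miR-199a-3p, and 5 lower and 2 higher with miR-590-3p. On that scale 5 were lower and 5 higher with miR-373-3p, and 4 lower and 7 higher with miR-302d-3p. The share of all tested genes past 1.5-fold was not computed on that scale.

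Among these targets the member levels and the target levels can be read side by side. Myoglobin (Mb), the oxygen store of muscle, was at 252 RPKM in the reference, 235 with miR-199a-3p, 55.6 with miR-590-3p, 51.6 with miR-373-3p, 41.2 with miR-302d-3p, 146 with miR-33b* and 39.3 with miR-1825. The libraries with low Mb included both the lowest Nkx2-5 level (miR-373-3p) and the highest (miR-1825). Whether the Nkx2-5 level has a part in that of Mb was not tested. Corin, the protease that processes atrial natriuretic peptide, was at 2.58 RPKM in the reference, 6.91 with miR-199a-3p and 0.55 with miR-1825, changes of 1.14 and -1.20. Ckm, muscle creatine kinase, was at -1.42 with miR-1825, and the muscarinic receptor gene Chrm2 at -1.16 with miR-302d-3p. The atrial light chain genes Myl4 and Myl7 were at 838 and 165 RPKM with miR-373-3p and 876 and 194 RPKM with miR-302d-3p, against 83.2 and 18.8 in the reference. In that order of libraries other atrial markers changed by -1.14 and -1.22 (Sln), 0.16 and -0.17 (Nppa), -0.15 and 0.25 (Gja5), 0.61 and 0.79 (Bmp10) and 0.15 and 0.43 (Stard10). Also past 2-fold were Nppa (-1.73) and Csrp3 (-1.21) with miR-199a-3p, Tnni3 with miR-1825 (-1.34), Ryr2 with miR-373-3p (-1.07) and Myl4 with miR-33b* (1.12).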

How the data were processed

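The authors deposited RPKM values of 17141 genes in a series table and in 7 single-sample files, whose values were equal within a relative tolerance of 1e-09. STAR 2.7, edgeR and Rnor_6.0 are named, per the submitters' processing notes, without roles; annotation, read counter, strand setting and filters were not given in the sources used here. Libraries were grouped by the miRNA named in the labels. Whole reads, gene lengths and library sizes behind the RPKM were found for 100% of genes (tolerance 0.003 to 0.05 reads) and served for counting intervals, read totals, relative gene lengths and 1 alternative scaling. The recovery and the fold limits were tested on simulated data. Changes used a pseudocount of 1 RPKM and a filter at a mean of 1 RPKM, with limits of 1.5-fold and 2-fold. The members and the gene lists were chosen with earlier results of these data known. All members are named; other genes come from the lists, those 2-fold from the reference first, and from the 2 closest profiles of each member. Symbols were matched directly or through RefSeq synonyms. Python 3.11.15, numpy 2.4.6, pandas 2.3.3 and scipy 1.17.1 were used. Alternatives were pseudocounts of 0.1 and 5, no filter, 2 other scalings, another reference and the 2-fold limit.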

Additional observations from a re-analysis of the deposited data

How the results depend on the processing

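Of the 60 changes (10 members in 6 libraries), 49 kept their sign when scaled to the reads in listed genes, 49 when the mean of the remaining 5 libraries was the reference, 59 when scaled by the median ratio and 60 under either pseudocount or with no filter; the 5 at 1.5-fold kept theirs in all of these. With a pseudocount of 0.1, no filter or scaling by the median ratio, the 5 changes at 1.5-fold passed it again; with a pseudocount of 5, 2 of the 5 did, the counts lower being 1 with miR-373-3p and 0 with miR-302d-3p and the count higher with miR-1825 0. Scaling by the median ratio moved the median of all tested genes by 0.0042 (miR-590-3p) to 0.012 (miR-1825). Library sizes set by the reads in listed genes moved it by 0.01 (miR-590-3p) to 0.30 (miR-199a-3p). On that scale 1 member was higher with miR-199a-3p and 1 with miR-373-3p, and 0 were lower with miR-373-3p and with miR-302d-3p. The members' medians were 0.36 with miR-199a-3p, -0.12 with miR-373-3p and 0.15 with miR-302d-3p, where those of all tested genes were 0.30, 0.17 and 0.23. With the mean of the other 5 miRNA libraries as reference 1 member was lower with miR-373-3p and 0 higher with miR-302d-3p. At the 2-fold limit 0 members were lower with miR-373-3p, 0 higher and 0 lower with miR-302d-3p, and 0 higher with miR-1825, since no member reaches it. Apart from these constructions, the cause was not tested. No paired analysis was possible because each miRNA has 1 library. Depth limits Tbx5 most, with 231 to 362 reads per library, and no sample group was large enough to look for outlying samples.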
